A study of Danio rerio with 46 samples.

Results

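The comparison covered the 14 adult gonad arrays of fish raised through heat, 10 testes and 4 ovaries, out of 46 arrays in the series. The members were taken from the labels alone: adult testes and adult ovaries at 90 days post fertilization (dpf) of zebrafish (Danio rerio) kept at 36 °C from 18 to 32 dpf and then at 28 °C like all other fish. The reference was the same comparison in fish kept at 28 °C throughout, again with 10 testes and 4 ovaries, so 28 adult arrays were used. No strain, mutation or transgene was named for any group, and the series describes the arrays as biological replicates. The question was which genes still set each heat ovary by itself apart from every heat testis.

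The zebrafish has no single master sex gene in most laboratory stocks, and young fish pass through a stage with immature oocytes in the gonad before a testis or an ovary forms. High temperature in that period raises the share of males in many fish. An adult ovary is filled with oocytes, which store maternal RNA and secrete the zona pellucida proteins of the egg coat, surrounded by follicle cells that make estrogen with aromatase. An adult testis is filled with spermatocytes and spermatids, with Sertoli cells and androgen-making Leydig cells between them.

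Each array gave a log2 signal for 31475 rows, of which 15298 were named by a gene symbol and 16177 by a clone or locus name. Upper quartiles of the adult arrays lay between 10.64 and 10.72 after the authors' quantile normalization. The number of arrays limits the precision. A row was called separated when all 4 ovaries lay on the same side of all 10 testes with a gap of at least 1 on the log2 scale, that is 2-fold, between the nearest ovary and the nearest testis. Separation is a description with no test. Differences of means, given as ovary minus testis, were tested with limma on the 14 heat arrays, and p-values carry the Benjamini-Hochberg adjustment over all rows. RNA came from gonad tissue of many cell types, in which fewer cells of a type and less RNA per cell cannot be told apart.

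The 4 heat ovaries were not alike, and this touches every result below. Across all rows the median correlation between 2 arrays of a group was 0.948 among heat testes, 0.954 among control testes and 0.952 among control ovaries, but 0.821 among heat ovaries (genes are not independent replicates). The mean correlation with the control ovaries was 0.952, 0.775, 0.948 and 0.813 for heat ovaries 1 to 4. With the heat testes it was 0.707, 0.907, 0.715 and 0.910. Heat ovaries 2 and 4 thus lay nearer to the testes than to the control ovaries, although labelled ovary, and results are given for each ovary by its number and, where they rest on these arrays, without them. Among the testes, heat testis 10 stood lowest over testis-high rows, at 11.22 against 11.35 to 11.51 in the other heat testes.

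After heat, 361 rows (1.15%) were separated with the ovaries high and 37 rows (0.118%) with the testes high. At control temperature, 2809 rows (8.92%) and 2969 rows (9.43%) were. Of the rows separated at control temperature, 346 of 2809 ovary-high rows (12.3%) and 17 of 2969 testis-high rows (0.573%) were separated in the same direction after heat. Without heat ovaries 2 and 4, a choice made after seeing the data, 3412 and 3359 rows were separated, and the shares kept were 84.4% and 79.4%. Leaving out arrays can only keep or raise such counts and shares, and these 2 ovaries were the ones nearest the testes. The rise is thus no separate support. Without heat ovary 2 alone, 576 ovary-high and 153 testis-high rows were separated, without heat ovary 4 alone 434 and 190, and without heat testis 8 alone 372 and 58. Among the 361 rows, 111 carried a gene symbol, and among the 37 rows, 5 did. The imbalance between directions concerned the width of the gap: with no minimum gap, 1554 rows (4.94%) were ovary-high and 1692 rows (5.38%) testis-high without overlap. At a gap of at least 2 (4-fold), 210 ovary-high rows and 0 testis-high rows were left.

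Taken by itself, heat ovary 1 had 4262 rows at least 1 above and 4544 rows at least 1 below all 10 heat testes. Heat ovary 3 had 4152 and 4022. The control ovaries, each against the control testes, had 4290 to 4555 rows above and 4418 to 4731 below, so ovaries 1 and 3 came near that range. Heat ovary 2 had 786 and 412 rows, and heat ovary 4 had 676 and 292. Of the 2463 ovary-high control rows no longer separated, heat ovary 2 was the nearest to the testes in 68.5% and heat ovary 4 in 30.9%, and of the 2952 testis-high rows lost they were so in 49.1% and 50%.

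Over the rows that were ovary-high at control temperature, the mean log2 signal of heat ovaries 1 to 4 was 11.23, 9.05, 11.24 and 9.37, against 8.02 to 8.16 in heat testes and 11.28 to 11.32 in control ovaries. Over the testis-high rows it was 7.79, 10.88, 7.93 and 10.86, against 11.22 to 11.51 in heat testes and 7.69 to 7.82 in control ovaries. Heat ovaries 2 and 4 therefore lay between the groups on both axes and closer to the testes. On the linear scale the median ovary-high row stood at 97.8%, 21.1%, 99.3% and 26.9% of its control ovary signal in heat ovaries 1 to 4, and at 12.2% to 14.2% in heat testes. The median testis-high row stood at 69.2% and 70.7% of its control testis signal in heat ovaries 2 and 4, and at 9.96% and 11.1% in heat ovaries 1 and 3.

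**Figure D1:**
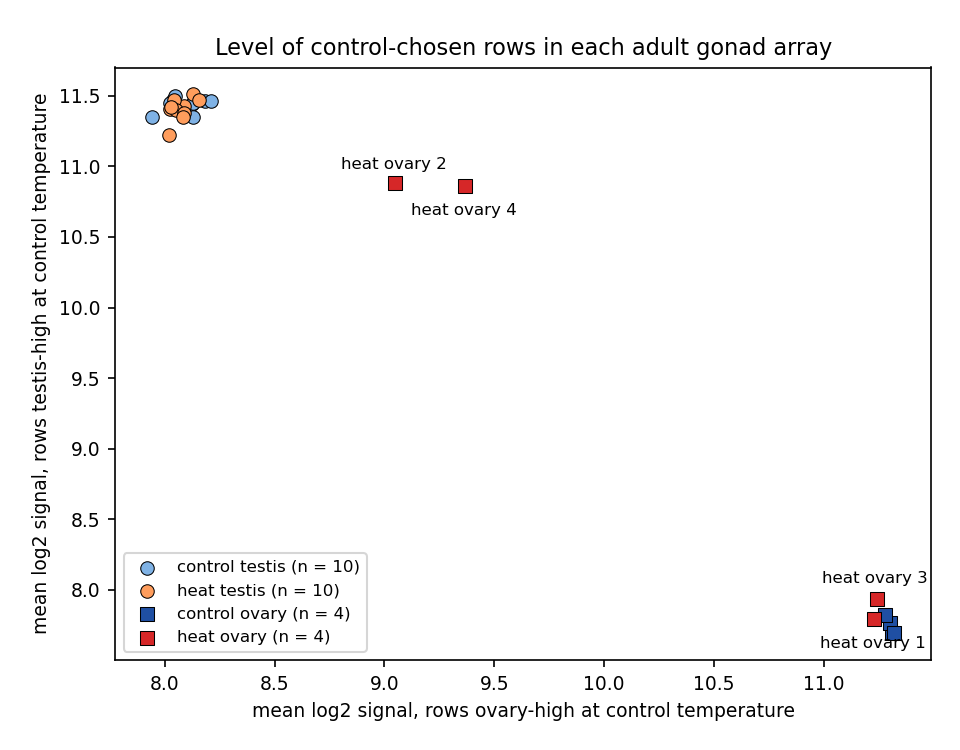
Mean log2 signal of each of the 28 adult arrays over the 2809 rows that were ovary-high at control temperature (x axis) and the 2969 rows that were testis-high (y axis), with the rows chosen in the control arrays. Heat ovaries 1 and 3 lie with the control ovaries at the lower right, while heat ovaries 2 and 4, at 9.05 and 9.37 on the x axis, lie nearer to the testes at the upper left.

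How wide the control gap had been went with whether a row stayed separated on the ovary side. Of 1685 ovary-high rows with a control gap of 1 to 2, 28 (1.66%) stayed separated, of 923 rows with a gap of 2 to 4, 152 (16.5%), of 180 rows with a gap of 4 to 6, 145 (80.6%), and of 21 rows with a gap of 6 or more, 21 (100%). On the testis side the counts were 7 of 1470, 6 of 1057, 4 of 358 and 0 of 84. Signal level moved with this too. Of ovary-high rows with a mean of 14 or more in control ovaries, 126 of 182 (69.2%) stayed separated, against 2 of 696 (0.287%) with a mean below 10, while no testis-high row of 14 or more in control testes did (0 of 271). The highest value in the adult arrays was 15.78, and whether signals near it were compressed was not tested.

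**Figure D2:**
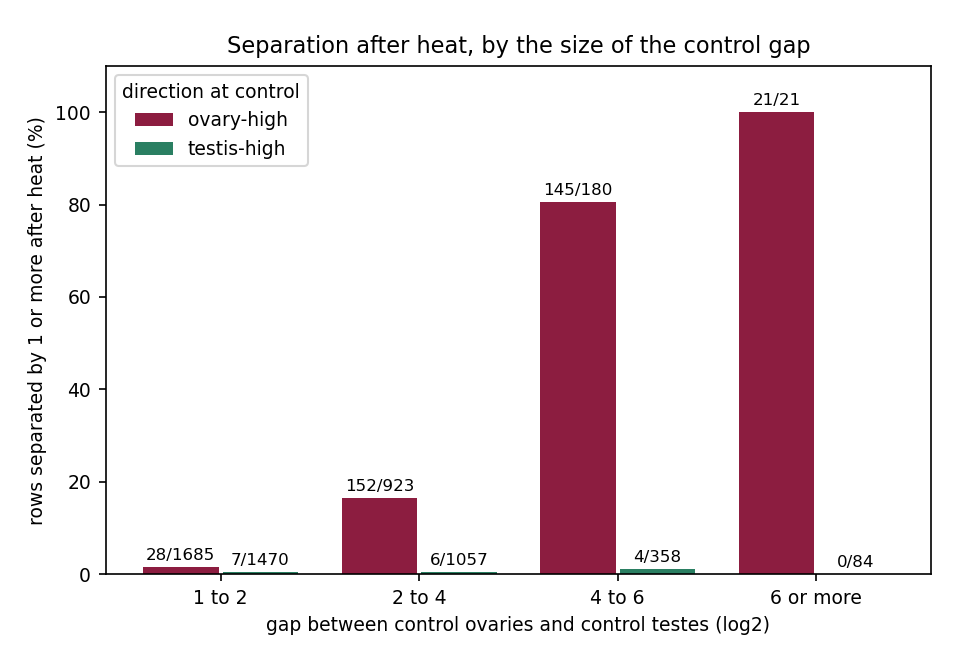
Percent of control-separated rows that stayed separated by a gap of at least 1 after heat (y axis), by the width of their control gap on the log2 scale (x axis), for ovary-high and testis-high rows. The numbers above the bars are rows kept over rows in the class, from 28 of 1685 to 21 of 21 on the ovary side and from 7 of 1470 to 0 of 84 on the testis side.

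In limma, 4392 rows (14.0%) were higher in heat ovaries and 5365 (17%) higher in heat testes. The control comparison called 9684 (30.8%) and 9304 (29.6%). Of the separated rows, 360 of 361 ovary-high and 37 of 37 testis-high were called. The fit pooled 1 variance over both groups, but the heat ovaries varied far more for the genes that split them. For tssk6 the SD was 4.52 in heat ovaries (n = 4) and 0.11 in heat testes (n = 10). For such genes the SE and p-values below understate the uncertainty. With 1 variance per group, set as a weight shared by all rows, the counts were 2542 and 3244. Such a shared weight does not correct the unequal variance of single genes such as tssk6. The heat counts rest on heat ovaries 1 and 3: without heat ovary 1 they were 2038 and 2348, and without heat ovary 3, 2106 and 2529, whereas without heat ovary 2 they were 5871 and 6370. A called mean difference and a separation of every array are thus different statements in this group, and both are given for the genes named below.

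Egg coat genes set every heat ovary apart from every heat testis. Of 18 members measured, 18 were higher in heat ovaries (background 14.0%) and 17 were separated by at least 1 (background 1.15%), and 16 of the 16 separated at control temperature stayed so. The share kept was 12.3% over all ovary-high control rows and 69.2% over those with a mean of 14 or more in control ovaries. The list was not compared with rows of like gap or signal alone. Their median difference was 5.0 on the log2 scale, against -0.08 over all rows. At control temperature the median difference of the list was 5.23. The mean over the list was 14.37, 13.67, 14.40 and 13.82 in heat ovaries 1 to 4 and 8.47 to 9.29 in heat testes. All 4 ovaries stood clear of the highest testis, and ovaries 2 and 4 lay 0.67 and 0.53 below the control ovary mean of 14.35 ± 0.15 (SD, n = 4).

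zp3.1, a zona pellucida glycoprotein gene, had the widest gap of any row with a gene symbol. Its log2 signal was 14.45, 13.47, 14.58 and 13.72 in heat ovaries 1 to 4 and 5.03 to 6.87 in heat testes (median 5.93). The difference was 8.13 ± 0.37 (SE, adjusted p = 8.42e-10, limma). All 4 ovaries stood clear of every testis, with a gap of 6.61.

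zpcx, another egg coat gene, read 14.73, 14.36, 14.34 and 14.44 in the heat ovaries and 7.74 to 9.52 in heat testes (median 8.42), a difference of 5.89 ± 0.28 (SE, adjusted p = 1.44e-09, limma). The 4 ovaries lay close together, and ovaries 2 and 4 were not low for this gene. For zp2, zp2.2, zp3, zp3.2 and zp3a.1 the gaps were 4.02, 3.65, 3.51, 6.22 and 6.18, and for the rows now named zpax1 and zpax4 they were 6.24 and 4.96. Of the 18 members, 13 had a gap as wide as or wider than in control fish and 5 a narrower one. A gap is set by the single nearest ovary and testis, so a wider gap need not be a larger mean difference. The narrower ones, named after their values were seen, were zp3b (2.21 after heat, 2.64 in control fish), zp3c (2.41 and 3.72) and the rows now named zp3d.1 (2.75 and 4.32), zp3d.2 (0.23 and 0.50) and zp3f.2 (3.17 and 5.13). Control testis 7 had an egg coat mean of 10.82 against at most 9.33 in the other control testes, and its part in the control gaps was not tested. The member below the gap of 1 after heat was zp3d.2, listed as si:ch211-225p5.3. Near-identical zona pellucida genes may share hybridization, so the value of a single member is uncertain by its relatives.

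Oocyte regulators and maternal factors were divided. Of 34 members, 29 (85%, against 14.0% of all rows) were higher in heat ovaries and 0 (against 17%) in heat testes, with a median difference of 2.67. Separated were 11 (32%, against 1.15%), compared with 24 at control temperature (background 8.92%). All 11 were among those 24, where 12.3% of all ovary-high control rows were kept. That share went with the control gap, from 1.66% at a gap of 1 to 2 to 80.6% at 4 to 6. The list was not compared with rows of like gap or signal, so no raised share is claimed. The list mean was 12.18, 10.41, 12.32 and 10.99 in heat ovaries 1 to 4 and 8.55 to 9.06 in heat testes. Relative to the control ovary mean of 12.27 ± 0.14 (SD, n = 4), ovaries 2 and 4 were lower by 1.86 and 1.27. Of the 34 members, 31, 19, 31 and 25 stood above all heat testes in ovaries 1, 2, 3 and 4.

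Members that stayed separated included zar1, an RNA-binding protein needed for oocyte growth. It read 12.62, 12.01, 12.61 and 12.22 in the heat ovaries and 6.80 to 7.87 in heat testes (median 7.27), a difference of 5.06 ± 0.22 (SE, adjusted p = 4.33e-10, limma). Ovaries 2 and 4 were the lowest, and the gap to the highest testis was 4.14. btg4, in mouse an adaptor for clearing maternal mRNA, read 14.23, 12.23, 14.12 and 12.79 against 7.57 to 9.20 in heat testes (median 8.53), with a gap of 3.03. The maternal linker histone gene h1m, the claudin gene cldnd and the row zgc:171776 had gaps of 3.37, 4.17 and 3.85. The other 6 separated members, named after their values were seen, were birc5b, dvr1, ca15b, vrtn, mos and nanog, with gaps of 2.63, 2.27, 2.01, 1.77, 1.56 and 1.05.

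Outside the lists, kpna7, an importin alpha that in mammals belongs to the oocyte and early embryo, read 14.17, 12.40, 14.23 and 12.62 against 4.97 to 7.01 in heat testes (median 6.35) and had a gap of 5.39. Ovaries 2 and 4 were the lower ones, yet all 4 lay far above the testes. tph1a, the first enzyme of serotonin synthesis, and trim35-29, of the tripartite motif family, had gaps of 4.48 and 4.48.

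bmp15, figla and gdf9, which lost the separation, were highest in ovaries 1 and 3 and lowest in ovary 2. bmp15, a growth factor secreted by the oocyte, read 13.02, 10.12, 13.21 and 11.02 against 7.61 to 9.41 in heat testes (median 7.90), so its gap was 0.71, compared with 4.22 in control fish. figla, the transcription factor that starts follicle formation and turns on zona pellucida genes in mouse, read 12.60, 8.90, 13.27 and 11.17 against 6.44 to 9.07 in heat testes (median 7.68). Its lowest ovary lay inside the testis range, and the difference of means was 3.75 ± 0.66 (SE, adjusted p = 0.00144, limma). gdf9, the partner of bmp15 in the oocyte, read 11.61, 7.64, 11.95 and 9.44 against 6.87 to 9.20 in heat testes (median 8.30). Ovary 2 was below the testis median and ovary 4 just above the highest testis, and the call (adjusted p = 0.0269 in limma) was lost without heat ovary 1 (adjusted p = 0.137) or heat ovary 3 (adjusted p = 0.142). pou5f1 (now pou5f3), a maternal pluripotency factor, also overlapped with the testes, while buc, the organizer of the Balbiani body, had a gap of 0.16.

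**Figure D3:**
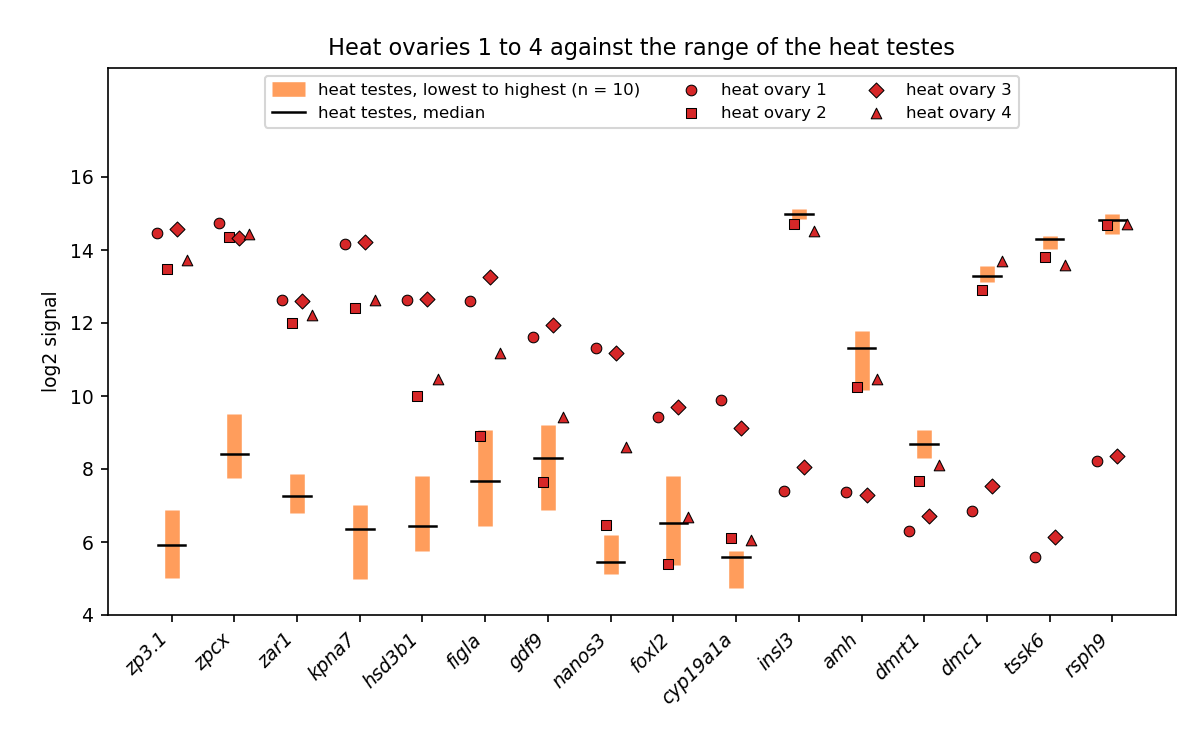
Log2 signal (y axis) of 16 genes in heat ovaries 1 to 4 (symbols) beside the lowest to highest value of the 10 heat testes (bars, with the median as a line). For zp3.1, zpcx, zar1, kpna7 and hsd3b1 all 4 ovaries lie clear of the bar, while from figla onward ovary 2 lies in or near it.

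In the germ cell and piRNA list of 28, 8 members (29%, against 14.0% of all rows) were higher in heat ovaries and 2 (7.1%, against 17%) in heat testes. Of 6 members separated at control temperature, 2 stayed separated (7.1% of the list, against 1.15% of all rows). These were ca15b, a carbonic anhydrase whose RNA lies in germ plasm, with a gap of 2.01, and tdrkh, a Tudor protein of the piRNA pathway, with 1.99. tdrkh read 12.03, 9.02, 11.90 and 9.55 against 5.89 to 7.03 in heat testes (median 6.42). nanos3, an RNA regulator of germ cells, read 11.31, 6.48, 11.19 and 8.61 against 5.14 to 6.20 in heat testes (median 5.44). Its ovaries 1 and 3 were far above the testes, ovary 4 was intermediate, and ovary 2 was just above the highest testis, by 0.28. The general germ cell gene vasa (now ddx4) did not pass the test (adjusted p = 0.324, limma) and read 13.70, 13.24, 13.53 and 13.69 against 11.12 to 13.57 in heat testes (median 13.31).

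Of 42 members of the follicle and estrogen list, 4 (9.5%, against 14.0% of all rows) were higher in heat ovaries and 11 (26%, against 17%) in heat testes, with a median difference of -0.49. Separated ovary-high were 2 members (4.8%, against 1.15%). The first was hsd3b1, a steroid-converting dehydrogenase, at 12.62, 9.998, 12.65 and 10.47 against 5.76 to 7.82 in heat testes (median 6.45), with a difference of 4.80 ± 0.49 (SE, adjusted p = 1.01e-05, limma). The second was vldlr, a lipoprotein receptor by which fish oocytes take up yolk protein, at 9.22, 8.84, 9.11 and 8.42 against 6.13 to 7.38 in heat testes (median 6.71), with a gap of 1.04.

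cyp19a1a, the ovarian aromatase, was not separated. It read 9.89, 6.11, 9.13 and 6.06 in the heat ovaries and 4.74 to 5.75 in heat testes (median 5.60), with a difference of 2.38 ± 0.57 (SE, adjusted p = 0.00757, limma) and a gap of 0.30, compared with 2.75 in control fish. Ovaries 1 and 3 stood far above the testes, while ovaries 2 and 4 stood just above the highest one. foxl2 (now foxl2a), a transcription factor of follicle cells, read 9.42, 5.41, 9.69 and 6.68 against 5.36 to 7.80 in heat testes (median 6.53). Ovaries 2 and 4 lay inside the testis range, and the mean difference did not pass the test (adjusted p = 0.214, limma). It did without heat ovary 2, the lowest ovary for this gene (adjusted p = 0.0245, limma). Without heat ovary 1, 3 or 4 alone it did not (adjusted p = 0.591, 0.632 and 0.133, limma). Leaving out the lowest ovary had to raise the difference, so the p-value without heat ovary 2 is no separate support. The follicle markers fshr and lhcgr leaned the other way, by -0.61 and -0.98, and did not pass the test (adjusted p = 0.489 and 0.172, limma).

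Of the 90 genes of the sperm, meiosis and testis somatic lists that were separated testis-high at control temperature, 0 were separated after heat, where the share kept over all testis-high rows was 0.573%, so this count is near the background. In the sperm axoneme and spermatid list of 87, 73 members (84%, against 17% of all rows) were higher in heat testes and 0 (against 14.0%) in ovaries. The median difference was -2.40. Separated testis-high were 0 (background 0.118%), against 70 at control temperature (background 9.43%). After heat, 26 were without overlap, against 5.38% of all rows. The list mean was 8.54, 12.11, 8.65 and 12.10 in heat ovaries 1 to 4, and 12.11 to 12.68 in heat testes. Ovaries 1 and 3 lay near the control ovary mean of 8.64 ± 0.10 (SD, n = 4), and ovaries 2 and 4 stood 3.47 above it. Members called higher in testis numbered 20 without heat ovary 1, 21 without heat ovary 3 and 78 without heat ovaries 2 and 4. Over all 31475 rows these counts were 2348, 2529 and 7454, so calls moved with these arrays across all rows too.

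tssk6, a kinase gene of spermatids, read 5.59, 13.80, 6.14 and 13.58 against 14.03 to 14.39 in heat testes (median 14.31), with a difference of -4.48 ± 1.21 (SE, adjusted p = 0.0128, limma). Ovaries 1 and 3 were far below the testes and ovaries 2 and 4 just below them, so the gap was 0.23, compared with 7.59 in control fish. Its call was lost without heat ovary 1 (adjusted p = 0.0729, limma) or heat ovary 3 (adjusted p = 0.0736, limma). rsph9, a radial spoke protein of the sperm tail, read 8.21, 14.70, 8.36 and 14.72 against 14.45 to 14.98 in heat testes (median 14.81). Its ovaries 2 and 4 lay inside the testis range. In spag6, tekt1, iqcg, dcst1 and ropn1l, ovaries 2 and 4 lay at the edge of the testis range or inside it. In each the call was lost without heat ovary 1 and also without heat ovary 3.

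Meiosis genes gave 15 of 26 (58%, against 17% of all rows) higher in heat testes and 2 (7.7%, against 14.0%) in heat ovaries. Separated were 0 (background 0.118% testis-high), against 12 testis-high at control temperature (background 9.43%). dmc1, the recombinase of meiotic strand exchange, read 6.84, 12.89, 7.54 and 13.71 against 13.13 to 13.57 in heat testes (median 13.29), with ovary 4 above every testis and ovary 2 just below them. The difference was -3.07 ± 0.95 (SE, adjusted p = 0.0245, limma). The call was lost without heat ovary 1 (adjusted p = 0.137, limma) or heat ovary 3 (adjusted p = 0.132, limma). sycp3, of the synaptonemal complex, read 7.94, 11.46, 8.79 and 12.19 against 12.10 to 12.75 in heat testes (median 12.45). spo11, which makes the breaks that start recombination, had the same order of ovaries but a smaller split between them than dmc1 and sycp3. It read 10.38, 11.04, 10.22 and 11.31 against 11.77 to 12.38 in heat testes (median 12.23), and all 4 ovaries were below every testis with a gap of 0.46.

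In the testis somatic and androgen list of 37, 8 members (22%, against 17% of all rows) were higher in heat testes and 3 (8.1%, against 14.0%) in heat ovaries. Separated were 0 (background 0.118% testis-high), against 8 testis-high and 2 ovary-high at control temperature (backgrounds 9.43% and 8.92%). insl3, a hormone of Leydig cells, read 7.39, 14.71, 8.05 and 14.52 against 14.86 to 15.12 in heat testes (median 14.98), with a difference of -3.80 ± 1.07 (SE, adjusted p = 0.0154, limma). The groups did not overlap, but ovaries 2 and 4 came close to the testes, with a gap of 0.15, and the call was lost without heat ovary 1 (adjusted p = 0.0869) or heat ovary 3 (adjusted p = 0.0873). cyp11c1, an enzyme of the fish androgen 11-ketotestosterone, read 7.54, 11.65, 7.29 and 12.29 against 10.26 to 12.76 in heat testes (median 12.27). Its lowest testis, heat testis 10, lay below ovaries 2 and 4.

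Among Sertoli cell genes, amh, anti-Müllerian hormone, read 7.37, 10.26, 7.27 and 10.46 against 10.16 to 11.78 in heat testes (median 11.31), with ovaries 2 and 4 at the low end of the testis range. dmrt1, a transcription factor of the testis pathway, read 6.31, 7.67, 6.72 and 8.10 against 8.30 to 9.08 in heat testes (median 8.68), a difference of -1.47 ± 0.28 (SE, adjusted p = 0.00241, limma). All 4 ovaries were below every testis, with a gap of 0.20, compared with 1.98 in control fish. gsdf, a growth factor of gonadal somatic cells in fish, read 8.61, 11.02, 8.88 and 12.20 against 11.65 to 12.996 in heat testes (median 12.41), with ovary 4 inside the range. The calls of amh, dmrt1 and gsdf held without heat ovary 1, at adjusted p = 0.032, 0.0138 and 0.0385. The Sertoli cell marker sox9a did not pass the test, at -0.02 (adjusted p = 0.954, limma). Its heat testis signals were dim, at 6.38 in heat testis 3 and 5.53 to 5.93 in the others. Whether they were background was not tested.

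**Figure D4:**
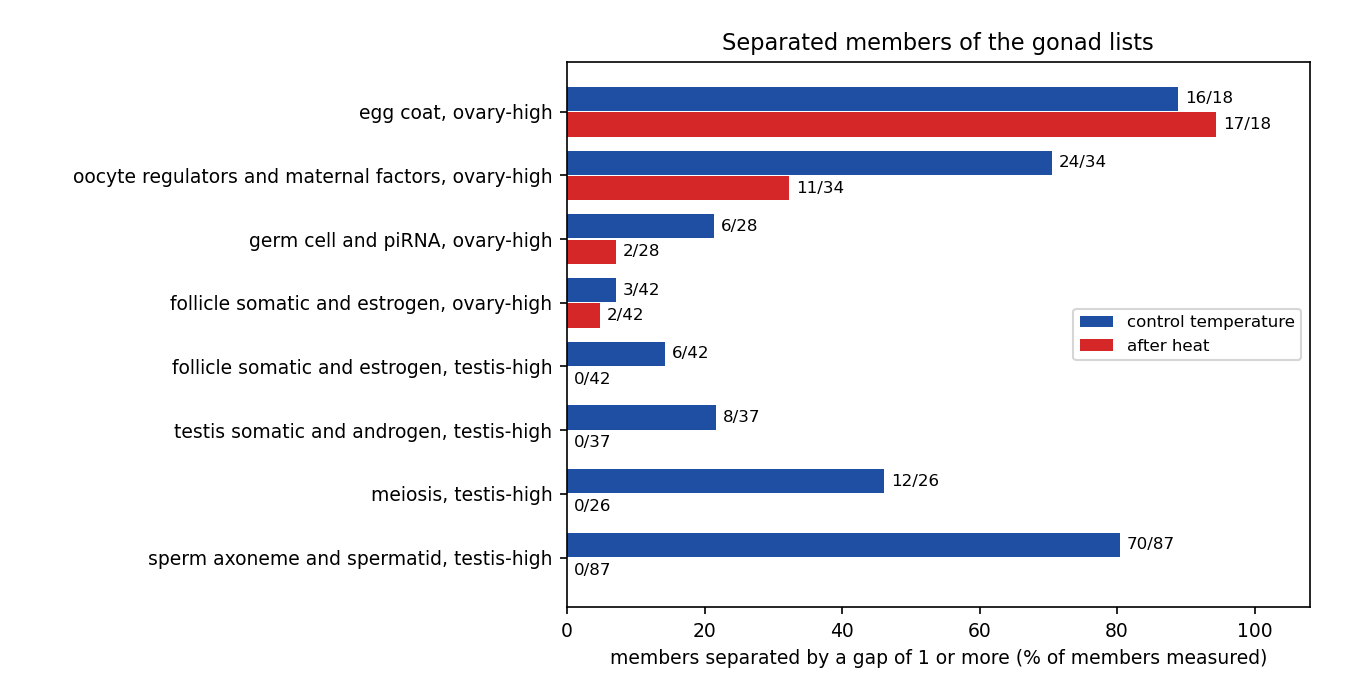
Percent of the measured members of each gonad list that were separated by a gap of at least 1 (x axis), at control temperature and after heat, with the counts at the bar ends. The egg coat list had 16 of 18 and 17 of 18, while the sperm axoneme and spermatid list went from 70 of 87 to 0 of 87. Of all rows, 8.92% at control temperature and 1.15% after heat were separated ovary-high, and 9.43% and 0.118% testis-high.

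The 5 symbols that set every heat testis above every heat ovary by a gap of at least 1 came from none of the gonad lists. With 0.118% of all rows separated this way, the absence of list members is near the background. With no minimum gap, every heat testis was above every heat ovary in 26 of 87 sperm list members. The same held for 5 of 26 meiosis and 2 of 37 testis somatic members, and for 5.38% of all rows. nek6, a kinase of mitosis, read 5.31, 5.56, 5.49 and 5.53 in heat ovaries and 6.85 to 9.35 in heat testes (median 7.64), a difference of -2.39 ± 0.40 (SE, adjusted p = 0.000995, limma). The 4 ovaries lay close together, ovaries 2 and 4 included. These ovary signals were dim (lowest value in the adult arrays 3.76), and whether they were background was not tested. The gap of 1.29 was wider than the 0.80 of control fish. In control fish the mean difference was -2.35, and its change did not pass the test (adjusted p = 0.973, limma). arl13b, a small GTPase of cilia, read 5.51, 7.74, 6.85 and 7.40 against 8.996 to 9.56 in heat testes (median 9.23), with a gap of 1.26. Here ovaries 2 and 4 were the highest of the ovaries but stayed clear of the testes.

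myh7bb, a myosin heavy chain gene, dusp3b, a dual specificity phosphatase gene, and pcdh1b, a protocadherin gene, had gaps of 1.15, 1.14 and 1.004. dusp3b read 5.59, 6.05, 6.96 and 4.90 against 8.10 to 11.21 in heat testes (median 10.26). The control ranges of dusp3b and pcdh1b overlapped, and the difference of the contrast between heat and control fish did not pass the test for either (adjusted p = 0.0846 and 0.539, limma). Of the 37 separated testis-high rows, 20 were not separated at control temperature and 14 of these overlapped there, against 15 and 6 of the 361 ovary-high rows. With the filter on low rows, 29 testis-high and 361 ovary-high rows were separated.

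In the Wnt, cell cycle and liver lists single members were separated, all ovary-high and all also separated in control fish. In the Wnt list of 71, 13 members (18%, against 14.0% of all rows) were higher in heat ovaries and 8 (11%, against 17%) in heat testes. The separated one was znrf3, a ubiquitin ligase that removes Wnt receptors from the cell surface, at 11.69, 9.14, 11.28 and 9.13 against 5.29 to 6.08 in heat testes (median 5.68). In the cell cycle list of 67, 16 (24%) were higher in ovaries and 8 (12%) in testes, and the separated one was birc5b, a survivin of the chromosomal passenger complex, with a gap of 2.63. Among 76 heat shock and chaperone genes, 9 (12%) were higher in ovaries, 7 (9.2%) in testes and 0 separated, and among 53 DNA methylation and chromatin genes the counts were 13 (25%), 3 (5.7%) and 0. With 1.15% and 0.118% of all rows separated, lists of this size with 1 or 0 separated members are near the background.

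Testing the contrast itself between heat and control fish, 227 rows (0.721%) had a higher signed ovary minus testis difference after heat and 153 rows (0.486%) a lower one. A testis-high difference that became smaller in size counts among the higher ones. kiss1, which encodes a kisspeptin, was ovary-high in control fish, where the ovaries averaged 9.81 ± 0.53 (SD, n = 4). After heat it read 5.03, 5.64, 6.79 and 6.03 against 5.82 to 7.68 in heat testes (median 6.45), a change of the contrast of -3.84 ± 0.58 (SE, adjusted p = 0.00177, limma). Every heat ovary was below every control ovary, and the heat groups overlapped. dusp4, a phosphatase of MAP kinases, averaged 11.94 ± 0.24 (SD, n = 4) in control ovaries and read 8.44, 7.67, 9.08 and 7.62 in heat ovaries. It stayed separated, but the gap went from 5.03 to 1.05, with a change of the contrast of -3.23 ± 0.39 (SE, adjusted p = 0.000119, limma).

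With a higher signed difference after heat, pfkfb2 (now pfkfb2a), a regulator of glycolysis, averaged 6.67 ± 0.88 (SD, n = 4) in control ovaries and read 9.60, 9.56, 10.07 and 9.48 against 8.98 to 10.42 in heat testes (median 9.82) after heat. All 4 heat ovaries lay in the testis range, and the contrast changed by 2.94 ± 0.40 (SE, adjusted p = 0.00078, limma). glulc, a glutamine synthetase gene, read 9.97, 10.76, 10.22 and 10.57 against 11.42 to 12.56 in heat testes (median 12.14), up from 6.77 ± 1.47 (SD, n = 4) in control ovaries, and its gap on the testis side went from 3.35 to 0.67. Its contrast changed by 3.40 ± 0.54 (SE, adjusted p = 0.00207, limma). For each of these 4 genes, all 4 heat ovaries lay outside the range of the control ovaries. The genes were named for the smallest adjusted p of this same test, which favours such rows. Their pattern is thus no separate support. The interaction counts rest on few arrays: they were 17 and 19 without heat ovaries 2 and 4, 27 and 23 without heat ovary 2, 26 and 22 without heat ovary 4, 2713 and 2104 without heat ovary 1, and 2396 and 2002 without heat ovary 3. Leaving out 1 heat testis gave 115 to 294 and 71 to 178.

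Markers of other tissues moved with some arrays. The mean of 23 erythrocyte markers was 8.86, 11.56, 8.83 and 11.05 in heat ovaries 1 to 4, against a median of 10.67 in heat testes (lowest 10.16) and 8.55 ± 0.07 (SD, n = 4) in control ovaries, so ovaries 2 and 4 stood above every heat testis. The mean of 38 leukocyte markers was 7.93, 9.35, 8.10 and 8.69, against 8.45 to 9.18 in heat testes and 7.74 to 8.64 in control ovaries, with ovary 2 above every heat testis and ovary 4 inside their range. The mean of 17 exocrine pancreas markers was 11.61, 11.71, 11.19 and 12.38 in heat ovaries, and 9.07, 11.32, 8.52 and 8.54 in control ovaries. In testes it was 9.88 to 11.97 after heat and 10.05 to 12.93 at control temperature. Of these 17, 13 were higher in control testes than in control ovaries by limma, against 29.6% of all rows. After heat, 4 (24%, against 14.0% of all rows) were higher in ovaries and 0 (against 17%) in testes. Among the 227 rows of the changed contrast (0.721% of all rows) were 9 of the 17. vtg2, a vitellogenin of the liver marker list, was separated, at 12.81, 9.96, 11.66 and 9.51 against 5.48 to 7.26 in heat testes (median 6.22). It was the single liver marker of 36 to be so (2.8%, against 1.15% of all rows). The mean of 32 skeletal muscle markers was 7.51, 7.72, 7.435 and 8.27 in heat ovaries 1 to 4, against 8.18 to 10.88 in heat testes. Of these 32, 9 (28%, against 17% of all rows) were higher in heat testes and 1 (3.1%, against 14.0%) in heat ovaries. The part of these tissues in the results was not tested.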

How the data were processed

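RNA of 28 adult gonads was measured on single-colour NimbleGen arrays. Per the labels' protocols, extraction used Trizol, amplification a whole-transcriptome kit and labelling Cy3. The deposited values, log2 signals, were made by the authors with RMA (background correction, quantile normalization, probe summary), per the submitters' processing notes. The log base was read from the range, 3.76 to 15.78. Which arrays were normalized together, the annotation and batches of slide or scan were not stated in the labels used, and no call of background was given, so folds of dim rows are uncertain.

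All 31475 rows were tested, unfiltered, with limma 3.58.1 (R 4.3.3, lmFit and eBayes, two-sided, Benjamini-Hochberg, called at an adjusted p under 0.05), on the 14 heat arrays, the 14 control arrays, and all 28 for the difference of the contrast. The fit was also run on simulated data that gave both groups the same variance. The heat ovaries varied far more than the testes for the genes that split them. That run therefore could not show how the fit behaves for such genes, and no conclusion is drawn from it. Row names were matched to RefSeq symbols (assembly GRCz12tu, names only): 14714 matched a current symbol and 3182 an older one of a single gene. The 20 lists found 838 of 979 entries, 91 by another symbol. The comparison, the lists and the rules were chosen with earlier results of these data known. Named genes were the rows with a symbol and the widest gaps (12 per direction), the separated and lost members of each list (up to 5 and 3), the widest control gaps lost (8 per direction), up to 5 per direction separated after heat with overlap in control fish, 5 per direction of the changed contrast, and a panel of 55 genes, 51 found. Alternatives were other variance models, weights, a filter on low rows, repeated quantile normalization, centring, a rank-sum test, other gaps, and leaving out arrays.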

Additional observations from a re-analysis of the deposited data

Results flagged for a closer look

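Among 282 groups of values tested for a value far from the rest, 19 held one, and chance gives about 1 in 20 groups. Heat testis 10 held 9 of these: its mean of the oocyte regulators was 9.06 (others 8.55 to 8.76), and its log2 signals were 10.26 for cyp11c1, 12.72 for hormad1, 12.29 for iqcg, 7.58 for pif1, 13.75 for zte38, 6.24 for lhcgr, 11.12 for vasa and 8.36 for tekt3, all lower than in the other heat testes except the oocyte mean and pif1, which were higher. Heat testis 8 had an intestine marker mean of 10.58 (others 7.10 to 8.90) and a plin2 signal of 10.22, a lipid droplet gene that reached at most 7.80 in the others. Further single values lay in heat testes 4 (zp2.2 at 9.46 and fstb at 11.03), 7 (socs8, now cishb, at 10.32), 3 (sox9a at 6.38) and 5 (spo11 at 11.77). In heat ovaries they were rspo1 in ovary 4 at 11.50, and inha at 8.15 and ar, the androgen receptor, at 12.64 in ovary 2.

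For 13 named genes the ovary minus testis difference itself differed between heat and control fish by limma's interaction test. In all 13 it was smaller in size after heat. Of these, rsph9, lrp2bp and cyp11c1 were named for a control separation lost after heat, cyp11c1 also as a panel gene. All others were named for the smallest adjusted p of this same test. Their passing, and the shrinkage of rsph9, lrp2bp and cyp11c1, thus follow in part from how they were named and are no separate support. For the testis-high ones the signed difference changed by 3.49 for cyp11c1 (from -5.92 to -2.44), 4.34 for rsph9 (from -7.59 to -3.25), 4.19 for lrp2bp, 2.94 for pfkfb2, 1.95 for bco2a, 3.40 for glulc, 2.32 for socs8 and 2.73 for wif1, a secreted Wnt inhibitor. For those ovary-high in control fish the change was -3.23 for dusp4 (from 5.94 to 2.71), -1.51 for slc25a32a, a mitochondrial folate carrier, -3.84 for kiss1, -1.57 for snapc1b and -1.78 for cmtm6.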

How the results depend on the processing

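Counts moved with which heat ovaries entered. Rows called in limma (4392 ovary-high and 5365 testis-high) were 2542 and 3244 with 1 variance per group, 2702 and 3402 by an exact rank-sum test, 7646 ovary-high leaving out heat ovaries 2 and 4, and 2038 to 5871 and 2348 to 6370 leaving out 1 array. With the replicate number as a replicate block they were 335 and 64, but same-numbered arrays share only a number (correlations of their deviations from -0.0262 to 0.0235). Rows of the changed contrast (227 and 153, by signed difference) were 13 and 7 with array weights (whose estimation stopped before full convergence), 465 and 258 with a filter on low rows, 17 and 19 without heat ovaries 2 and 4, 62 and 44 with the replicate block, 44 lower ones with 1 variance per group, and 26 to 2713 and 22 to 2104 leaving out 1 array. Separated rows (361 and 37) were 1554 and 1692 at a gap above 0, 210 and 0 at a gap of 2, 3412 and 3359 without heat ovaries 2 and 4, and 362 to 576 and 38 to 190 leaving out 1 array, and 19 testis-high rows were called when each heat ovary was fitted by itself. The shares kept (12.3% and 0.573%) were 21.2% and 20.9% at a gap above 0, 17.3% and 0% at a gap of 2, 84.4% and 79.4% without heat ovaries 2 and 4, 10.96% ovary-high with centred arrays, 14.7% ovary-high with the filter, and 12.4% to 19.2% and 0.573% to 3.60% leaving out 1 array. At a gap above 0 and of 2, rows above all testes were 9351 and 1666 in heat ovary 1, 4219 and 296 in ovary 2, 9321 and 1677 in ovary 3, and 4236 and 297 in ovary 4, and rows below them 9425 and 2325, 5738 and 33, 8959 and 2065, and 5222 and 14. The cause of these shifts was not tested beyond the arrays left out. Counts of separated rows and shares kept can only stay or rise when arrays are left out. No named gene changed direction past the threshold, and of 119 named genes 30 lost their call without heat ovary 1, 28 without heat ovary 3, 61 under the replicate block and at most 6 under the other variance, scaling and filter settings.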

Other observations

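Genes outside the gonad lists also lost their ovary-high separation. plin2, of lipid droplets, read 12.17, 9.74, 11.63 and 9.78 in heat ovaries 1 to 4, and only heat testis 8, at 10.22, overlapped with them, since the other heat testes reached at most 7.80. For the genes that follow, ovaries 2 and 4 were the lowest. itprip, which binds an inositol trisphosphate receptor, read 11.31, 7.27, 11.34 and 8.36 against 5.38 to 7.47 in heat testes. baiap2l1a, of the cell cortex, read 10.46, 5.85, 10.56 and 5.06 against 4.83 to 6.34, so ovaries 2 and 4 lay inside the testis range. sox9b, a Sox transcription factor, read 11.60, 7.96, 9.13 and 8.02 against 4.77 to 7.18, with a gap of 0.77. Here ovary 3 also lay below the control ovary mean of 11.57 ± 0.79 (SD, n = 4).

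Further sex genes varied. The steroid transport gene star read 9.50, 13.10, 9.89 and 13.23 against 13.24 to 14.12 in heat testes, with a difference of -2.20 ± 0.56 (SE, adjusted p = 0.01, limma) that was lost without heat ovary 1 (adjusted p = 0.0571) or heat ovary 3 (adjusted p = 0.059). cyp11a1, the first enzyme of steroid synthesis, differed by 1.80 ± 0.58 (SE, adjusted p = 0.0296, limma), which was lost without heat ovary 1 (adjusted p = 0.113) or heat ovary 3 (adjusted p = 0.157), and inha, an inhibin subunit, by -1.52 ± 0.32 (SE, adjusted p = 0.00395, limma). The estrogen receptor gene esr2a read 10.78, 9.001, 10.97 and 9.34 against 8.96 to 10.57 in heat testes, a difference of 0.40 (adjusted p = 0.443, limma). It was 1.25 without heat ovaries 2 and 4 (adjusted p = 0.0098, limma). These ovaries were left out after their values were seen and were the lowest here, so the difference had to rise. cyp17a1, of androgen synthesis, read 11.71, 11.53, 11.81 and 11.61 against 11.15 to 12.25 (adjusted p = 0.435, limma). The receptor gene esr2b read 5.70, 7.997, 6.25 and 7.70 against 8.15 to 8.91. It differed by -1.53 (adjusted p = 0.00576, limma), and all 4 ovaries lay below every testis, by 0.15 at the nearest. hsd17b3, a steroid dehydrogenase, read 5.58, 10.82, 7.38 and 6.80 against 7.20 to 8.66, with ovary 2 above every testis. Its difference of -0.27 (adjusted p = 0.781, limma) was -1.33 without heat ovary 2 (adjusted p = 0.013, limma). Leaving out the highest ovary had to lower the difference, so the second p-value is no separate support.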
